A study of Mus musculus with 18 samples.

Results

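The guidance genes described here are the semaphorins, the plexins and neuropilins, the Eph receptors, the ephrins, the Slits, the Robos, the netrins with the netrin-Gs, and the Unc5 receptors with Dcc. They are defined by gene symbol, and 71 of the 55291 symbols in the count files matched. There were 20 semaphorins, 11 plexins and neuropilins, 14 Eph receptors, 8 ephrins, 3 Slits, 4 Robos, 6 netrins and netrin-Gs, and 5 Unc5 receptors or Dcc. All mice were wild-type males of the C57BL/6J strain. At the age of 6 weeks they received an AAV (AAV-DJ-GfaABC1D-EGFP-Rpl10a) that tags ribosomes in cells using a fragment of the astrocytic Gfap promoter. The AAV control group had the AAV alone and was collected 2 weeks later. In the KA group kainic acid, a glutamate receptor agonist, was injected into the dentate gyrus 2 weeks after the AAV as a model of mesial temporal lobe epilepsy. RNA was collected 14 days after KA, so KA and AAV control also differed in the time since the AAV and in age at collection. They differed as well in a further injection into the hippocampus, which AAV control did not have. The PBS group had PBS in place of KA. Each group had 3 samples, each a pool of the right hippocampi of 3 to 4 mice, and each sample gave an IP library (RNA pulled down with the tagged ribosomes by an anti-GFP antibody) and an input library (RNA of the whole homogenate), 18 libraries in all.

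Library totals lay between 7991681 and 16032180 counts. Run 1 held KA and AAV control #1 and #2, run 2 held #3 of the same groups, and run 3 held the PBS samples alone, so that run and PBS treatment cannot be told apart. The summed FPKM of 8 astrocyte markers was 5483 to 10929 in IP libraries and 450 to 1210 in input libraries, so the IP libraries carried the labelled cell type. They also held other cells' RNA: the sum of 6 neuron markers in IP was 173 to 250 FPKM with KA, 96.9 to 129 in AAV control and 94.4 to 164 with PBS, and that of 6 oligodendrocyte markers was 1279 to 2439, 247 to 1037 and 277 to 550. None of these markers was at 0 throughout a group. In AAV control IP #3 the oligodendrocyte sum was 1037 FPKM, against 247 and 316 in AAV control IP #1 and #2.

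Guidance molecules steer growing axons, and many remain in use at adult synapses and in glia. Semaphorins signal through plexins, the secreted class with neuropilins as co-receptors. Eph receptors and ephrins are both held in membranes and signal into both cells at a contact, and in the adult hippocampus ephrin-A3 on astrocytes and EphA4 on neurons are known to meet at dendritic spines. Slits repel axons through Robo receptors, netrins attract through Dcc and repel through Unc5 receptors, and the netrin-Gs are membrane-anchored relatives that bind synaptic adhesion proteins rather than Dcc.

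Levels spanned a wide range. Of the 71 genes, 27 were above 1 FPKM in all 18 libraries, 61 were above 1 FPKM in at least 1 library and 10 never were. FPKM divides the count by library total and gene length, so it can be compared between genes. The highest mean over the 18 libraries was that of the receptor Epha4, at 26.0 FPKM, followed among the family leaders by the ephrin Efnb3 (14.5), the plexin Plxnb1 (8.58), the netrin receptor Unc5a (8.43), Slit3 (7.23), the semaphorin Sema6b (5.89) and the netrin-G Ntng1 (3.90). Robo2 led the Robos at 2.40 FPKM. At the low end the semaphorins Sema3f and Sema3g and the receptors Epha1, Epha2, Epha8 and Robo4 stayed at or below 0.382 FPKM in every library. No member was at 0 in all 18 libraries.

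**Figure D1:**
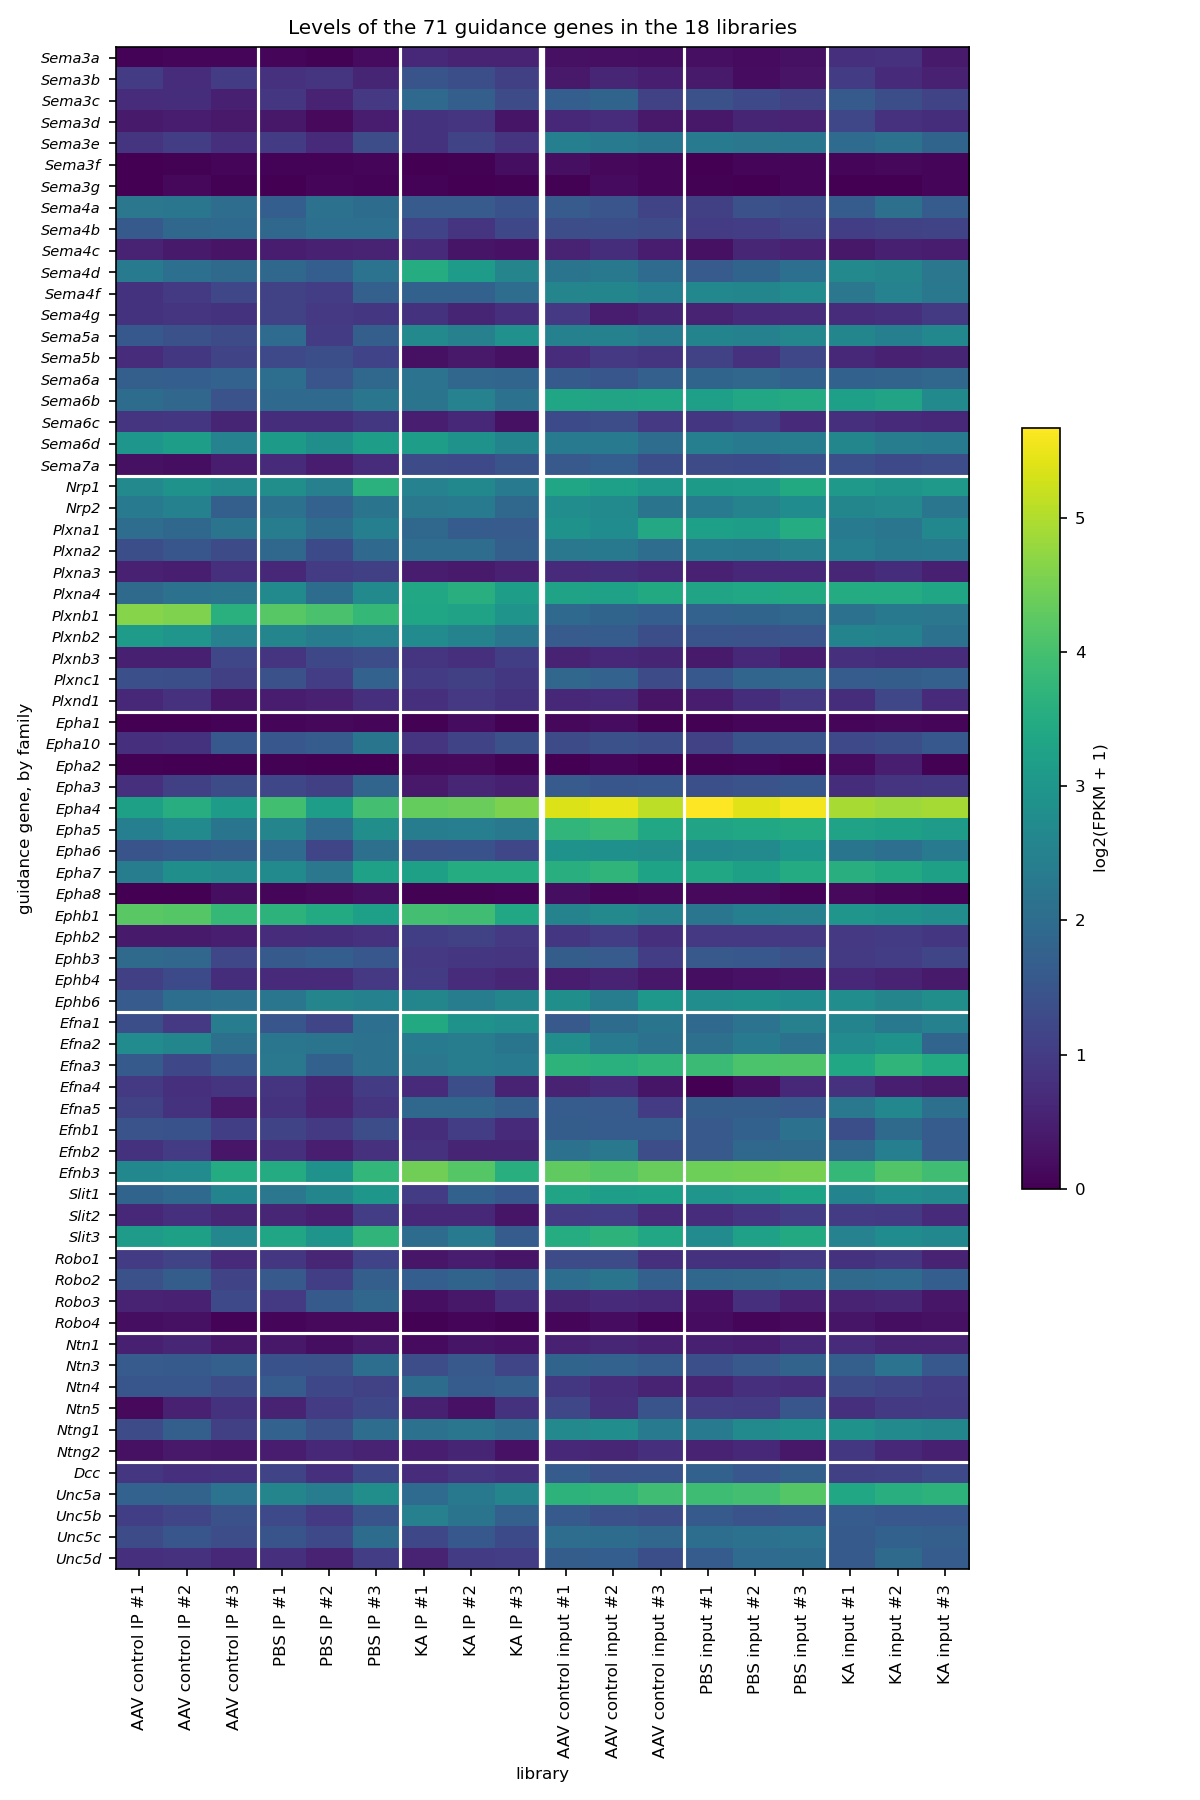
Levels of the 71 guidance genes as log2(FPKM + 1), with 1 line per gene grouped by family and 1 column per library, IP at left and input at right of the wide white line. Epha4 is brightest in input, Plxnb1 and Ephb1 are brighter in IP than in input, and Sema3f, Epha1, Epha2 and Epha8 are dark throughout.

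The first comparison set these genes in KA against AAV control on astrocyte-tagged ribosomes. The further injection, the time since the AAV and age went with KA here and cannot be told apart from it. Genes were tested where FPKM was above 1 in all 6 libraries, and a gene was called when its adjusted p was under 0.05 (edgeR quasi-likelihood test, Benjamini-Hochberg over all 9729 genes tested) with a change of at least 2-fold. Of 30 members tested, 8 rose (26.7%), against 6.39% of all genes tested, and 2 fell (6.67%), against 5.22%. The risers were the semaphorins Sema4d and Sema5a, the plexin Plxna4, the receptor Epha4, the ephrins Efna3 and Efnb3, the netrin-G Ntng1 and the netrin receptor Unc5b, and Plxnb1 and Slit3 fell. The median log2 fold change was 0.42 over the 30 members and -0.02 over all genes tested. The other 41 members were at or below 1 FPKM in at least 1 of the 6 libraries, which leaves out genes low in either group, and are taken up further on. In such bulk libraries fewer cells of a type and less RNA per cell cannot be told apart.

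Among the ligands that passed the FPKM filter, Sema5a, a transmembrane semaphorin, had the largest log2 fold change. It stood at 1.97, 1.67 and 1.46 FPKM in AAV control IP #1, #2 and #3 and at 5.38, 4.56 and 6.32 FPKM in KA IP. All KA libraries lay above all AAV control libraries, and the log2 fold change was 1.75 ± 0.21 (SE, n = 3 per group; adjusted p = 0.00186). Sema4d, a membrane semaphorin known from oligodendrocytes and immune cells and a ligand of plexin-B1, was at 4.17, 3.19 and 2.87 FPKM in AAV control and 10.3, 7.61 and 4.97 FPKM in KA. Its log2 fold change was 1.21 ± 0.24 (adjusted p = 0.0133), without overlap of the groups. The order of its KA libraries, highest in #1 and lowest in #3, was also that of the oligodendrocyte marker sum (2439, 1687 and 1279 FPKM). The sum of 6 microglia markers in KA IP had that order too (39.0, 29.9 and 19.8 FPKM). In AAV control IP #1, #2 and #3 the oligodendrocyte sum was 247, 316 and 1037 FPKM, the reverse of the Sema4d order there. The microglia sum was 10.3, 8.38 and 13.2 FPKM in those libraries. The part of either sum in the rise was not tested. Without KA IP #1 the Sema4d call was lost (0.97, adjusted p = 0.0463), as it was without AAV control IP #2 (1.13, adjusted p = 0.0560). Sema4a, another membrane semaphorin, was at 3.79, 3.66 and 3.09 FPKM in AAV control and 2.09, 2.11 and 1.70 FPKM in KA, separate but short of a 2-fold change (-0.78 ± 0.16, adjusted p = 0.0143).

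Efna3, which encodes the astrocytic ligand of EphA4, had 2.04, 1.33 and 1.89 FPKM in AAV control IP and 3.73, 4.18 and 4.09 FPKM in KA IP. The 3 KA values were close together and above all AAV control values, with a log2 fold change of 1.24 ± 0.25 (adjusted p = 0.0134), and the call was lost without KA IP #2 (1.24, adjusted p = 0.0526). Efnb3, a transmembrane ephrin, was more scattered. Its values were 5.29, 5.72 and 10.2 FPKM in AAV control and 20.7, 17.1 and 11 FPKM in KA, so that AAV control IP #3 came within 1 FPKM of KA IP #3. The log2 fold change was 1.20 ± 0.33 (adjusted p = 0.0395). The Efnb3 call was lost without KA IP #1 (1.04, adjusted p = 0.128), KA IP #2 (1.19, adjusted p = 0.108), KA IP #3 (1.38, adjusted p = 0.0518), AAV control IP #1 (0.99, adjusted p = 0.122) or AAV control IP #2 (1.03, adjusted p = 0.125).

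Slit3, a secreted repellent, fell. It was at 7.79, 8.36 and 5.20 FPKM in AAV control IP and 3.03, 4.00 and 2.17 FPKM in KA IP, without overlap, a log2 fold change of -1.16 ± 0.23 (adjusted p = 0.0122). The Slit3 call was lost without KA IP #1 (-1.12, adjusted p = 0.0571). Ntng1 rose from 1.5, 2.31 and 1.12 FPKM to 3.31, 3.68 and 3.10 FPKM, again without overlap (1.11 ± 0.24, adjusted p = 0.0168). This call was lost without KA IP #1 (1.16, adjusted p = 0.0517), KA IP #2 (1.07, adjusted p = 0.0671), AAV control IP #1 (1.03, adjusted p = 0.0640) or AAV control IP #3 (0.93, adjusted p = 0.0110), and in the run 1 libraries alone the change was under 2-fold (0.94, adjusted p = 0.00269). In the same IP libraries 3 of 8 astrocyte markers also fell, namely Slc1a2 (-1.42), Slc1a3 (-1.19) and Gja1 (-1.42), Gfap rose (2.49), and the median log2 fold change of the 8 was -1.10. The part of these markers in the falls of Slit3 and of Plxnb1, which follows, was not tested. The netrins Ntn3 and Ntn4 were not called, with log2 fold changes of -0.41 ± 0.22 and 0.61 ± 0.21.

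Of the receptors, Plxna4, a signalling receptor for class 3 semaphorins, had the smallest adjusted p of the 30 members tested. It stood at 2.92, 3.41 and 3.53 FPKM in AAV control IP and 9.38, 10.9 and 8.08 FPKM in KA IP, and its lowest KA value was more than 2-fold its highest AAV control value. The log2 fold change was 1.56 ± 0.18 (adjusted p = 0.00146). Plxna2, a related plexin, was at 1.58, 1.86 and 1.5 FPKM and 3.08, 3.10 and 2.27 FPKM, with an adjusted p of 0.0111 but a log2 fold change of 0.82 ± 0.16. Plxnb1, the Sema4d receptor, went the other way, from 24.0, 22.8 and 11.2 FPKM to 9.28, 8.58 and 6.67 FPKM. AAV control IP #3 was far below the other AAV control libraries yet above every KA library, and the log2 fold change was -1.17 ± 0.26 (adjusted p = 0.0177). The Plxnb1 call did not hold without KA IP #1 (-1.23, adjusted p = 0.0597), KA IP #2 (-1.18, adjusted p = 0.0720), KA IP #3 (-1.09, adjusted p = 0.0620), AAV control IP #1 (-1.01, adjusted p = 0.0582) or AAV control IP #2 (-1.07, adjusted p = 0.0625). The neuropilins Nrp1 and Nrp2, co-receptors of the secreted semaphorins, had log2 fold changes of -0.25 ± 0.15 and 0.02 ± 0.23 and were not called.

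Epha4 was at 8.36, 10.7 and 7.60 FPKM in AAV control IP and 19.2, 19.8 and 22.7 FPKM in KA IP. The groups were well apart, the log2 fold change was 1.28 ± 0.20 (adjusted p = 0.00440), and like those of Sema5a and Plxna4 the call held with any 1 of the 6 libraries left out. Epha7, a receptor of the same class, had 4.21, 6.04 and 5.39 FPKM and 8.31, 10.5 and 10.4 FPKM, a log2 fold change of 0.96 ± 0.22 just under 2-fold (adjusted p = 0.0190). It would have been called without KA IP #1 (1.11, adjusted p = 0.0315) or AAV control IP #3 (1.05, adjusted p = 0.00912). Unc5b, a repulsive netrin receptor also known from vessels, was at 1.09, 1.27 and 1.65 FPKM in AAV control and 4.55, 3.51 and 2.33 FPKM in KA, a log2 fold change of 1.39 ± 0.28 (adjusted p = 0.0132) without overlap. Its KA libraries were in the same order as those of Sema4d. The Unc5b call was lost without KA IP #1 (1.19, adjusted p = 0.0524) or AAV control IP #2 (1.31, adjusted p = 0.0537). The single Robo tested, Robo2, had a log2 fold change of 0.49 ± 0.19 (adjusted p = 0.115) and was not called.

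**Figure D2:**
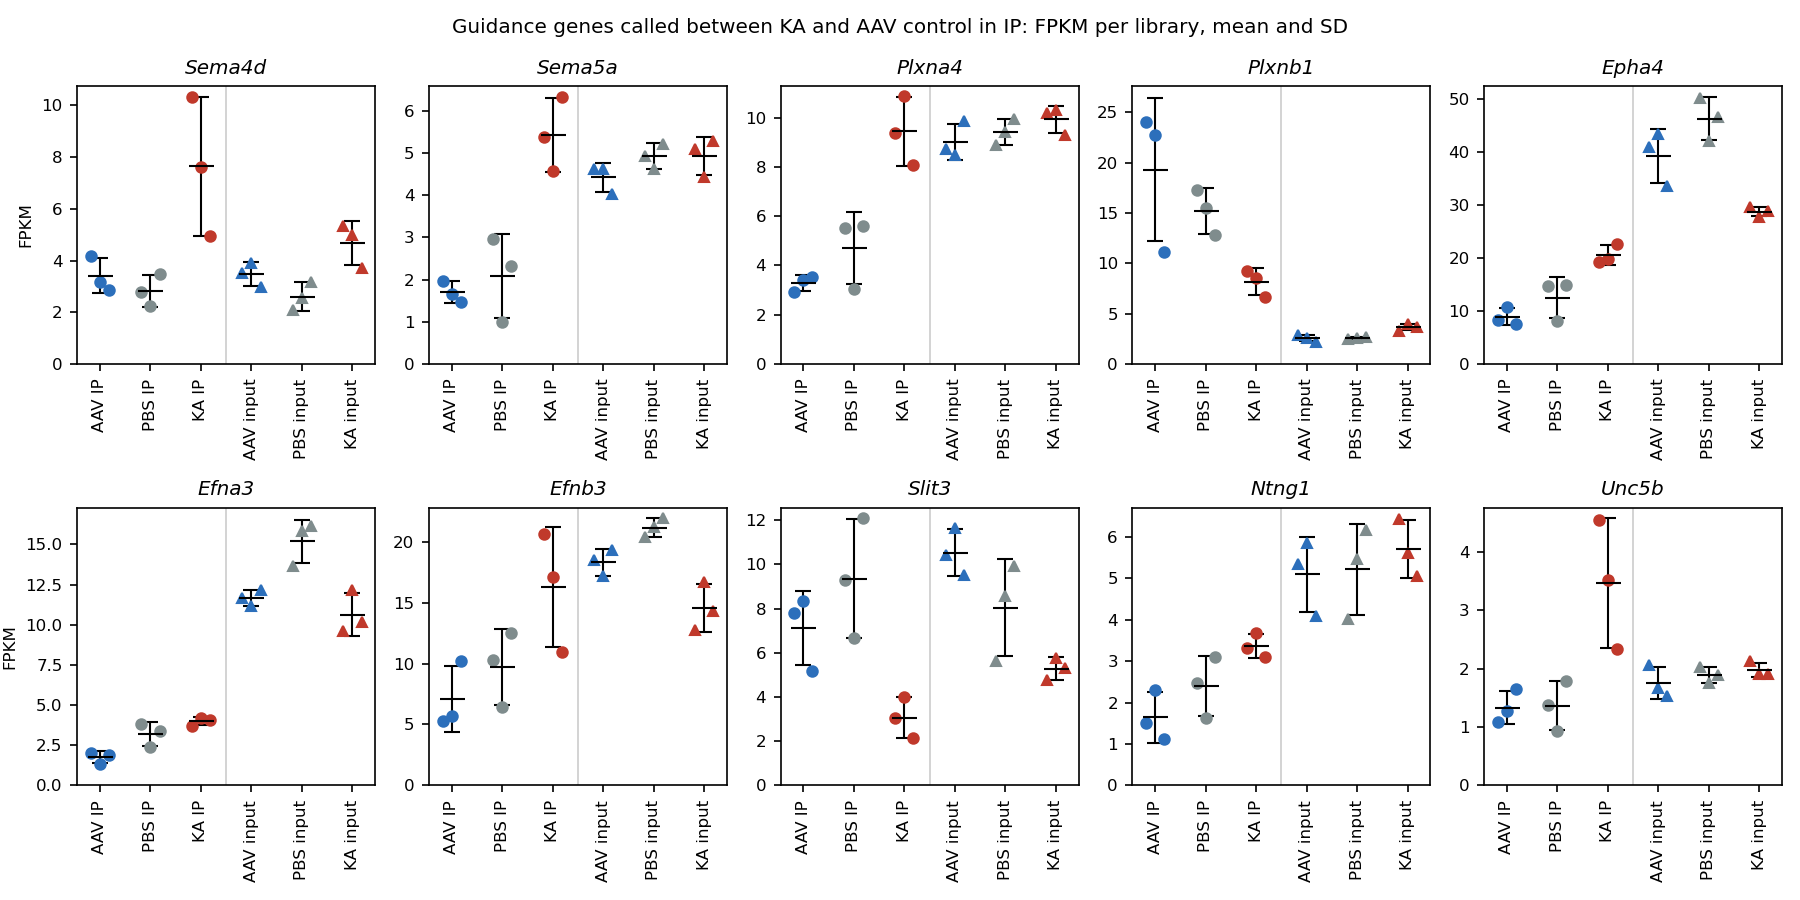
FPKM per library of the 10 guidance genes called between KA and AAV control in IP, with a point per library, the mean (short bar) and the SD (error bar, n = 3), circles for IP and triangles for input. "AAV" stands for AAV control, and each panel has its own axis from 0. All KA IP points lie above all AAV control IP points for 8 genes, and below them for Plxnb1 and Slit3.

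Sema5a, Plxnb1, Epha4 and Unc5b are shown with the bases before their start because each was called here and again when the KA effect was compared between IP and input, and because each has a single start in the RefSeq table of promoters, on GRCm38.p6. That table held 61 of the 71 members, and Efnb3 and Plxna4 have no entry. Each line gives the 250 bases before the start, read 5′ to 3′ on the gene's strand. The windows are chr15:32244563-32244812 (plus strand) for Sema5a, chr9:109095186-109095435 (plus strand) for Plxnb1, chr1:77515089-77515338 (minus strand) for Epha4 and chr10:60831582-60831831 (minus strand) for Unc5b. Capitals mark matches on either strand. The motifs searched were the GC box, spelled GGGCGG, the box bound by the factor NF-Y, spelled CCAAT, the core promoter element spelled TATAAA, the motif of STAT factors, spelled TTCNNNGAA, and that of AP-1, spelled TGANTCA.
Sema5a: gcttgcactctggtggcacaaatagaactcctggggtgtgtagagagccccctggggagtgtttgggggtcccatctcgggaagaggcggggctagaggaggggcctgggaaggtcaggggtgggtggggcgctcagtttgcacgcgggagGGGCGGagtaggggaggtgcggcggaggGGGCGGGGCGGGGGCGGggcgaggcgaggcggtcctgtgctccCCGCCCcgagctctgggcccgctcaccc
Plxnb1: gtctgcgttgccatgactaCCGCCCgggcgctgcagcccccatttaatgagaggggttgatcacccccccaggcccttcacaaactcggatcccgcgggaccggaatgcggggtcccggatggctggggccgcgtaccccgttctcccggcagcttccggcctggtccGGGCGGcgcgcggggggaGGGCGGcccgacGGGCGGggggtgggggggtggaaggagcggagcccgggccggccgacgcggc
Epha4: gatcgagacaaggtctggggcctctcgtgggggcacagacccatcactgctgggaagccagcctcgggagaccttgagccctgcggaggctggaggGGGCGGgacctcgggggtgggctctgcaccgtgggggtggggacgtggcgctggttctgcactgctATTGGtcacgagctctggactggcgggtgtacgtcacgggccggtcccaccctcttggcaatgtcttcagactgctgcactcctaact
Unc5b: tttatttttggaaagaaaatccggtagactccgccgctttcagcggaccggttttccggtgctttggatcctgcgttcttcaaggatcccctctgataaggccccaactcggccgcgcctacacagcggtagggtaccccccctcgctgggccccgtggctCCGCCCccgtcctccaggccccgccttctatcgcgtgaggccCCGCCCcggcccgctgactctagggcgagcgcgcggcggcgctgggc
The Sema5a window held 5 GC boxes, 3 of them in 1 unbroken run, that of Plxnb1 held 4, that of Unc5b 2, and that of Epha4 1 together with 1 NF-Y box. None of the 4 windows held the core promoter element or the STAT or AP-1 letters. A GC box was present in 32.7% of the 32851 promoters in the table, an NF-Y box in 33.8%, the core promoter element in 12.4%, the STAT motif in 7.0% and the AP-1 motif in 6.7%. Over the 77 promoters of members, some of which have several starts, the shares were 70.1%, 27.3%, 2.6%, 2.6% and 3.9%, and the median share of G and C was 64.4% against 52.4% in all promoters. In the windows shown it was 72.0% for Sema5a, 66.0% for Epha4 and 66.8% for Unc5b, which rose, and 75.2% for Plxnb1, which fell.

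Read against PBS, fewer members passed the same thresholds. Of 30 members tested in IP, 3 rose (10%), against 8.08% of all genes tested, and 1 fell (3.33%), against 9.34%. The median log2 fold change was 0.19 over the members and -0.01 over the 9847 genes tested. This comparison used the same KA libraries as that with AAV control. Sema4d was at 2.78, 2.23 and 3.49 FPKM in PBS IP, below all KA libraries, with a log2 fold change of 1.43 ± 0.23 (adjusted p = 0.00112). Efna1, an ephrin known as an inflammatory response gene of endothelium, was at 1.88, 1.29 and 3.23 FPKM in PBS IP and 9.91, 6.45 and 5.83 FPKM in KA IP, the largest rise among members past the FPKM filter (1.82 ± 0.30, adjusted p = 0.00128). In AAV control IP, where Efna1 was not tested, it was at 1.59, 0.914 and 4.31 FPKM, with AAV control IP #3 far above the rest. Plxna4 was at 5.50, 3.03 and 5.62 FPKM in PBS IP (1.02 ± 0.21, adjusted p = 0.00390), and its change was under 2-fold without KA IP #2 (0.95, adjusted p = 0.0160) or PBS IP #2 (0.84, adjusted p = 0.0112). Slit3, at 9.28, 6.68 and 12.1 FPKM in PBS IP, fell by 1.59 on the log2 scale (SE 0.22, adjusted p = 5.89e-04), without overlap with KA.

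The other genes called against AAV control and also tested against PBS had a smaller change here. Epha4 was at 14.6, 8.01 and 14.9 FPKM in PBS IP, below every KA library, with a log2 fold change of 0.75 ± 0.22 (adjusted p = 0.0233). Efnb3 was at 10.3, 6.41 and 12.5 FPKM (0.75 ± 0.23, adjusted p = 0.0267), and its PBS and KA libraries overlapped. For Plxnb1 the PBS values of 17.3, 15.5 and 12.8 FPKM were all above KA (-0.91 ± 0.20, adjusted p = 0.00590). These 3 genes, with Epha7 (0.76 ± 0.24, adjusted p = 0.0300), Plxna1 (-0.75 ± 0.18, adjusted p = 0.00943) and Sema4f (0.85 ± 0.29, adjusted p = 0.0392), passed the adjusted p but not 2-fold. In all, 10 of 30 members (33.3%) passed the adjusted p, against 37.0% of all genes tested. Of the 8 astrocyte markers 4 fell against PBS and 1 rose, with a median of -0.70. Without PBS IP #3 the members called numbered 7, with Epha7 (1.02), Plxnb1 (-1.08) and Sema4f (1.21) added. Efna3, at 3.85, 2.37 and 3.40 FPKM in PBS IP, had a log2 fold change of 0.33 ± 0.22 (adjusted p = 0.270), and Ntng1, at 2.47, 1.64 and 3.10 FPKM, had 0.51 ± 0.20 (adjusted p = 0.0639). Sema5a and Unc5b were not tested because PBS IP #2 was at 0.989 and 0.937 FPKM. Their PBS IP values were 2.95, 0.989 and 2.31 FPKM and 1.38, 0.937 and 1.78 FPKM, all below KA, and without PBS IP #2 they were called (1.13, adjusted p = 0.0108, and 1.21, adjusted p = 0.00903). With all libraries and edgeR's filterByExpr in place of the FPKM filter, Sema5a was at 1.58 and Unc5b at 1.51.

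**Figure D3:**
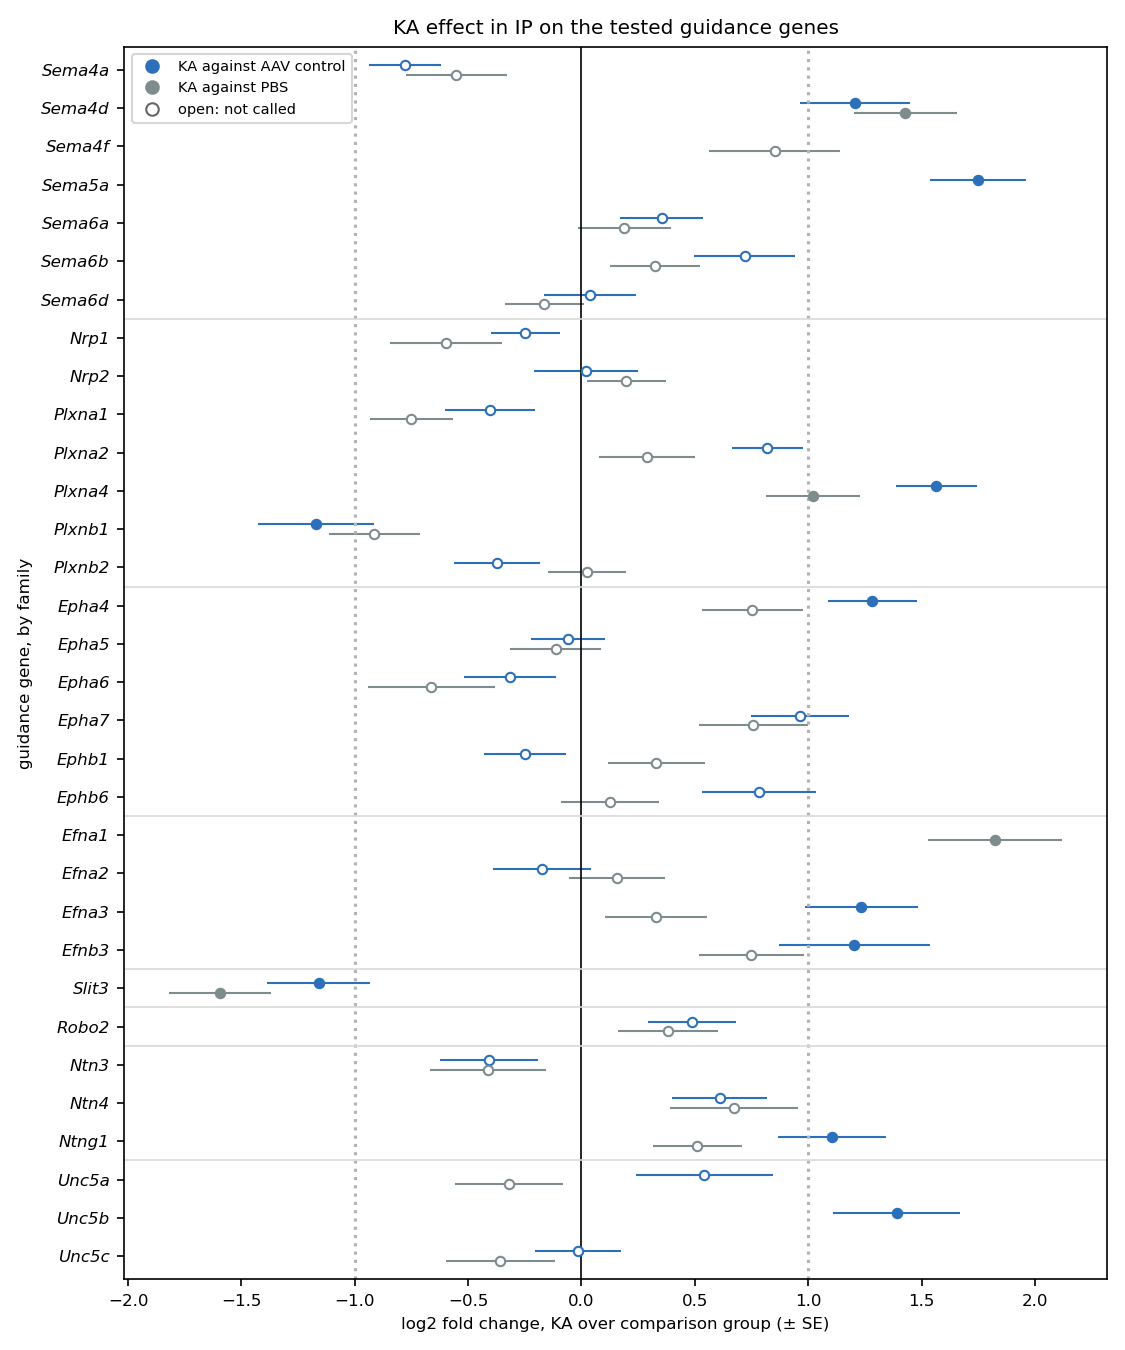
Log2 fold change in IP of KA over AAV control (blue) and of KA over PBS (grey), with SE, for each guidance gene tested in either comparison. Filled points were called, and dotted lines mark a 2-fold change. The KA libraries are shared by both series. Sema4d, Plxna4 and Slit3 have both points filled, while Efna3 is at 1.24 over AAV control and 0.33 over PBS.

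PBS and AAV control were then compared with each other. In IP none of 32 members tested was called by edgeR (0% of all 10667 genes tested were called higher and 0% lower), DESeq2 or limma voom. Of the 32, 6 had an unadjusted p under 0.05, against 1153 of the 10667 genes. The median log2 fold change of the members was 0.29, against 0.03 over all genes. Those 6 genes were Efna3 (0.89 ± 0.29), Unc5a (0.85 ± 0.24), Ephb6 (0.65 ± 0.28), Plxna4 (0.53 ± 0.23) and Epha4 (0.52 ± 0.23), which were higher with PBS, and Ephb1 (-0.59 ± 0.23), with adjusted p from 0.436 to 0.459. Without AAV control IP #3, Slit1 (1.04, adjusted p = 0.0350) and Unc5a (1.10, adjusted p = 0.0174) were called. In that fit 546 of all genes tested were called, against 0 with every library kept. In input none of 44 members was called by edgeR, DESeq2 or limma voom (0% of 10924 genes in either direction by edgeR), and the median was 0.06. Of the 44, 3 had an unadjusted p under 0.05, against 901 of the 10924 genes, namely Sema4d (-0.39), Efna3 (0.41) and Unc5d (0.48). Without AAV control input #3 no member was called, while 365 of all genes tested were.

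In input, where RNA of every hippocampal cell was read, few members passed both thresholds with KA. Of 43 members tested against AAV control 2 rose (4.65%), against 2.52% of all 10809 genes tested, and none fell by edgeR (0.185% of all genes), by DESeq2 or by limma voom. By the adjusted p alone 5 of 43 members passed (11.6%), against 4.49% of all genes tested. At an unadjusted p under 0.05 in either direction there were 15 members, against 1939 of the 10809 genes. The median log2 fold change was -0.06. Plxnb2, a B-class plexin found in many cell types including microglia, rose from 2.09, 2.13 and 1.58 FPKM in AAV control input to 4.87, 4.61 and 3.43 FPKM in KA input, without overlap (1.16 ± 0.16, adjusted p = 0.00709). In the same input libraries the sum of 6 microglia markers was 71.6 to 110 FPKM in AAV control and 643 to 1162 FPKM in KA, and its part in the rise was not tested. The sum of 3 choroid plexus markers varied more between input libraries, at 2484 to 4472 FPKM in KA, 2976, 2111 and 15.5 in AAV control #1, #2 and #3, and 18.2 to 289 in PBS, and its part in the input values was not tested either. Efna5, a membrane-anchored ephrin, was at 2.14, 2.10 and 1.01 FPKM in AAV control input and 3.82, 5.26 and 3.26 FPKM in KA input (1.26 ± 0.28, adjusted p = 0.0463). The Efna5 call was lost without KA input #1 (1.33, adjusted p = 0.166), #2 (1.08, adjusted p = 0.197) or #3 (1.36, adjusted p = 0.0829), or AAV control input #1 (1.39, adjusted p = 0.109) or #2 (1.41, adjusted p = 0.0906). That of Plxnb2 was lost without KA input #1 (1.09, adjusted p = 0.0547), so that neither was called then. Slit3 was at 10.4, 11.6 and 9.51 FPKM in AAV control input and 4.76, 5.78 and 5.32 FPKM in KA input, a log2 fold change of -0.98 ± 0.14 (adjusted p = 0.00827) just short of 2-fold. It passed 2-fold without KA input #2 (-1.02), KA input #3 (-1.05), AAV control input #1 (-1.03) or AAV control input #3 (-1.0), and in the run 1 libraries alone (-1.07). Slit1 (-0.64 ± 0.14, adjusted p = 0.0419) and Epha6 (-0.76 ± 0.17, adjusted p = 0.0443) also passed the adjusted p alone.

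Against PBS in input, 1 of 42 members rose (2.38%), against 4.26% of all genes tested, and 1 fell (2.38%), against 1.09%, with a median of -0.04. Plxnb2 was at 1.79, 1.72 and 1.82 FPKM in PBS input and rose by 1.25 ± 0.13 on the log2 scale (adjusted p = 8.96e-05), where the microglia marker sum was 83.5 to 89.4 FPKM. Plxna1, a semaphorin receptor, fell from 8.16, 7.95 and 10.3 FPKM in PBS input to 3.98, 3.66 and 5.24 FPKM in KA input (-1.03 ± 0.16, adjusted p = 0.00124). It was under 2-fold without KA input #1 (-0.95, adjusted p = 0.00708), KA input #2 (-0.90, adjusted p = 0.00515) or PBS input #3 (-0.96, adjusted p = 0.00988). AAV control input had 6.38, 5.74 and 9.79 FPKM of Plxna1, with #3 highest, and the change against it did not pass (-0.77 ± 0.28, adjusted p = 0.200). A further 16 members passed the adjusted p with less than a 2-fold change, so that 18 of 42 (42.9%) passed it, against 27.7% of all genes tested. Among those lower in KA were Dcc (-0.87 ± 0.16), Epha4 (-0.70 ± 0.13), Epha6 (-0.68 ± 0.14), Slit3 (-0.60 ± 0.16), Unc5c (-0.58 ± 0.11), Efnb3 (-0.55 ± 0.11), Unc5a (-0.52 ± 0.12) and Efna3 (-0.52 ± 0.12), and among those higher were Efna5 (0.94 ± 0.18), Sema4d (0.84 ± 0.14), Sema4a (0.80 ± 0.20), Ephb1 (0.59 ± 0.10) and Plxnb1 (0.50 ± 0.12). Without KA input #3, Efna5 (1.04) and Dcc (-1.03) were called as well. The sum of the 6 neuron markers in input was 579 to 629 FPKM in KA, 792 to 904 in AAV control and 817 to 898 in PBS, and its part in these values was not tested.

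The IP to input comparison asks where the transcripts sat relative to whole hippocampus. In AAV control 4 of 34 members tested were higher in IP (11.8%), against 13.3% of all genes tested, and 12 were lower (35.3%), against 13.1%. The median log2 fold change of IP over input was -0.57 over the members and 0.01 over all 9961 genes. In PBS 4 of 34 were higher (11.8%, against 14.8%) and 9 lower (26.5%, against 12.3%), with a median of -0.46. In KA 4 of 35 were higher (11.4%, against 8.11%) and 3 lower (8.57%, against 4.51%), with a median of -0.07. All 8 astrocyte markers were called higher in IP in each group, with medians of 3.28 in AAV control, 3.01 in PBS and 1.78 in KA. Of 6 oligodendrocyte markers, 0 were called higher in AAV control (median -0.28) and in PBS (-0.60), and 6 in KA (1.41). Of 6 neuron markers 5, 5 and 4 were called lower in these groups (-2.41, -2.52 and -1.225). Of 4 dentate granule cell markers tested 3, 2 and 0 were called lower (-1.62, -1.52 and -0.02). The part of these markers in the member values was not tested. In AAV control the summed neuron markers were at 96.9 to 129 FPKM in IP and 792 to 904 FPKM in input.

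Among members past the FPKM filter, the receptors Plxnb1, Plxnb2 and Ephb1 and the ligand Sema4a were the 4 higher in IP in AAV control and in PBS. Members below that filter were tested with filterByExpr, and in both groups more of them were lower in IP than higher. Of these, Ephb4 (1.645 in AAV control and 1.79 in PBS), Sema3b (1.23 and 1.67) and Ntn4 were higher in both. Plxnb1 was the most enriched. Its FPKM in IP was 8.44, 8.83 and 5.03 times that in input of the same homogenate in AAV control #1, #2 and #3, 7.09, 6.04 and 4.72 times in PBS, and 2.80, 2.18 and 1.79 times in KA. The log2 fold changes of IP over input were 3.05 ± 0.27, 2.72 ± 0.21 and 1.36 ± 0.13 (adjusted p = 1.80e-04, 1.31e-06 and 2.07e-04). Its level in IP was lower with KA, as given above, while in input it was 2.85, 2.58 and 2.22 FPKM in AAV control, 2.44, 2.57 and 2.71 in PBS and 3.32, 3.94 and 3.72 in KA. Ephb1, a receptor of the B class, was at 17.7, 17.2 and 12.7 FPKM in AAV control IP and 4.77, 5.40 and 4.73 FPKM in AAV control input, at 11.8, 10.2 and 8.18 and 3.67, 4.43 and 4.51 FPKM in PBS, and at 14.7, 14.4 and 9.50 and 6.78, 6.51 and 5.85 FPKM in KA. It was higher in IP in every group (1.81 ± 0.16, 1.42 ± 0.20 and 1.22 ± 0.14). Plxnb2, at 7.64, 6.75 and 4.75 FPKM in AAV control IP and 5.63, 4.85 and 3.71 FPKM in KA IP, had 1.87 ± 0.19 in AAV control, 1.51 ± 0.16 in PBS and 0.35 ± 0.15 in KA, where it was not called. Sema4a had 1.18 ± 0.20, 1.15 ± 0.23 and -0.13 ± 0.19, and its call in PBS was lost without PBS IP #2 (0.93, adjusted p = 0.00363). Sema6d, the next in AAV control, was at 6.88, 7.86 and 4.72 FPKM in IP and 4.02, 4.08 and 3.06 FPKM in input and stayed under 2-fold (0.95 ± 0.19). It was called without AAV control IP #3 (1.10) or AAV control input #2 (1.03).

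In the other direction, Efna3 was lowest in IP relative to input among the members past the FPKM filter in AAV control. Its FPKM in IP was 0.175, 0.120 and 0.155 times that in input in AAV control, 0.282, 0.150 and 0.211 times in PBS and 0.389, 0.344 and 0.402 times in KA. The log2 fold changes were -2.57 ± 0.24, -2.10 ± 0.18 and -1.19 ± 0.16, called in every group. Although this ephrin is known as an astrocytic ligand, its transcript was thus sparser on the tagged ribosomes than in the whole homogenate in all 9 samples. Unc5a, a netrin receptor known from neurons, was at 2.46, 2.51 and 3.48 FPKM in AAV control IP and 11.7, 12 and 14.4 FPKM in AAV control input (-2.01 ± 0.25), with -1.48 ± 0.14 in PBS and -1.21 ± 0.24 in KA, the last lost without KA IP #1 (-1.0, adjusted p = 0.0184). Unc5a overlaps Hk3 on the opposite strand, and the library kit does not mark strand, so reads of the pair cannot be told apart where they overlap. Epha4 in IP was 0.205, 0.247 and 0.227 times input in AAV control and 0.650, 0.713 and 0.786 times in KA (-1.99 ± 0.18 and -0.26 ± 0.16, with -1.78 ± 0.22 in PBS). Sema6b, a transmembrane semaphorin, was at 2.99, 2.66 and 1.75 FPKM in AAV control IP and 9.15, 8.89 and 9.32 FPKM in input (-1.75 ± 0.20), with -1.45 ± 0.15 in PBS and -0.73 ± 0.18 in KA. Epha6 was at 1.79, 1.96 and 2.18 and 6.58, 6.24 and 5.98 FPKM (-1.5 ± 0.18), with -1.14 ± 0.23 in PBS and -1.04 ± 0.18 in KA. The PBS call of Epha6 was lost without PBS IP #2 (-0.86, adjusted p = 0.00151) and the KA call without KA IP #3 (-0.99, adjusted p = 0.00473) or KA input #3 (-0.89, adjusted p = 0.00683), and with the filterByExpr filter in place of FPKM (-0.96).

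The other members lower in IP in AAV control were Ntng1 (-1.49 ± 0.25), Plxna4 (-1.30 ± 0.19), Sema5a (-1.23 ± 0.15), Epha5 (-1.20 ± 0.18), Efnb3 (-1.19 ± 0.32), Slit1 (-1.10 ± 0.30) and Plxna1 (-1.07 ± 0.28). Efnb3 was lost without AAV control IP #1 (-0.99, adjusted p = 0.0706), AAV control IP #2 (-1.0, adjusted p = 0.0700) or AAV control input #3 (-1.11, adjusted p = 0.0501), and so was Plxna1 (-1.01, adjusted p = 0.0757, then -0.93, adjusted p = 0.0773, then -0.74, adjusted p = 0.0305). Slit1 was lost without AAV control IP #1 (-0.90, adjusted p = 0.0778), AAV control IP #2 (-0.92, adjusted p = 0.0801), or AAV control input #1 (-1.10, adjusted p = 0.0595), #2 (-1.13, adjusted p = 0.0531) or #3 (-1.08, adjusted p = 0.0513). In KA the corresponding values were -0.54 ± 0.12 for Ntng1, 0.14 ± 0.12 for Plxna4, 0.36 ± 0.19 for Sema5a, -0.77 ± 0.11 for Epha5, 0.35 ± 0.19 for Efnb3 and -0.69 ± 0.20 for Plxna1, none of them called. Slit1 was not past the FPKM filter in KA, and it was lower in IP there with filterByExpr (-1.28, adjusted p = 0.00776), with no filter (-1.28) and without KA IP #1 (-1.04, adjusted p = 0.00390). In PBS, Ntng1 (-1.0 ± 0.17), Efnb3 (-1.02 ± 0.17), Plxna1 (-1.04 ± 0.15) and Sema4f (-1.75 ± 0.22) were called lower in IP. The PBS calls were lost without PBS IP #2 for Ntng1 (-0.85, adjusted p = 0.00194), Efnb3 (-0.84, adjusted p = 6.86e-04) and Plxna1 (-0.94, adjusted p = 6.79e-04). They were also lost without PBS input #3 for Ntng1 (-0.93, adjusted p = 0.00321) and Plxna1 (-0.98, adjusted p = 0.00120), and without PBS input #2 for Ntng1 (-0.97, adjusted p = 0.00269). In KA, the netrin Ntn4 (1.20 ± 0.20, adjusted p = 0.00262) and Unc5b (1.0 ± 0.20, adjusted p = 0.00550) were higher in IP. For Ntn4 this was not particular to KA. It was below the FPKM filter in AAV control and PBS, where it was higher in IP with filterByExpr, as given above. With the replicate block, which pairs IP and input of one homogenate, Unc5b was at 0.99 and under 2-fold. It was also under 2-fold with RLE size factors (0.99), DESeq2 (0.99) and limma voom (0.98), and without KA IP #1 (0.80, adjusted p = 0.0172) or KA input #2 (0.93, adjusted p = 0.0326).

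**Figure D4:**
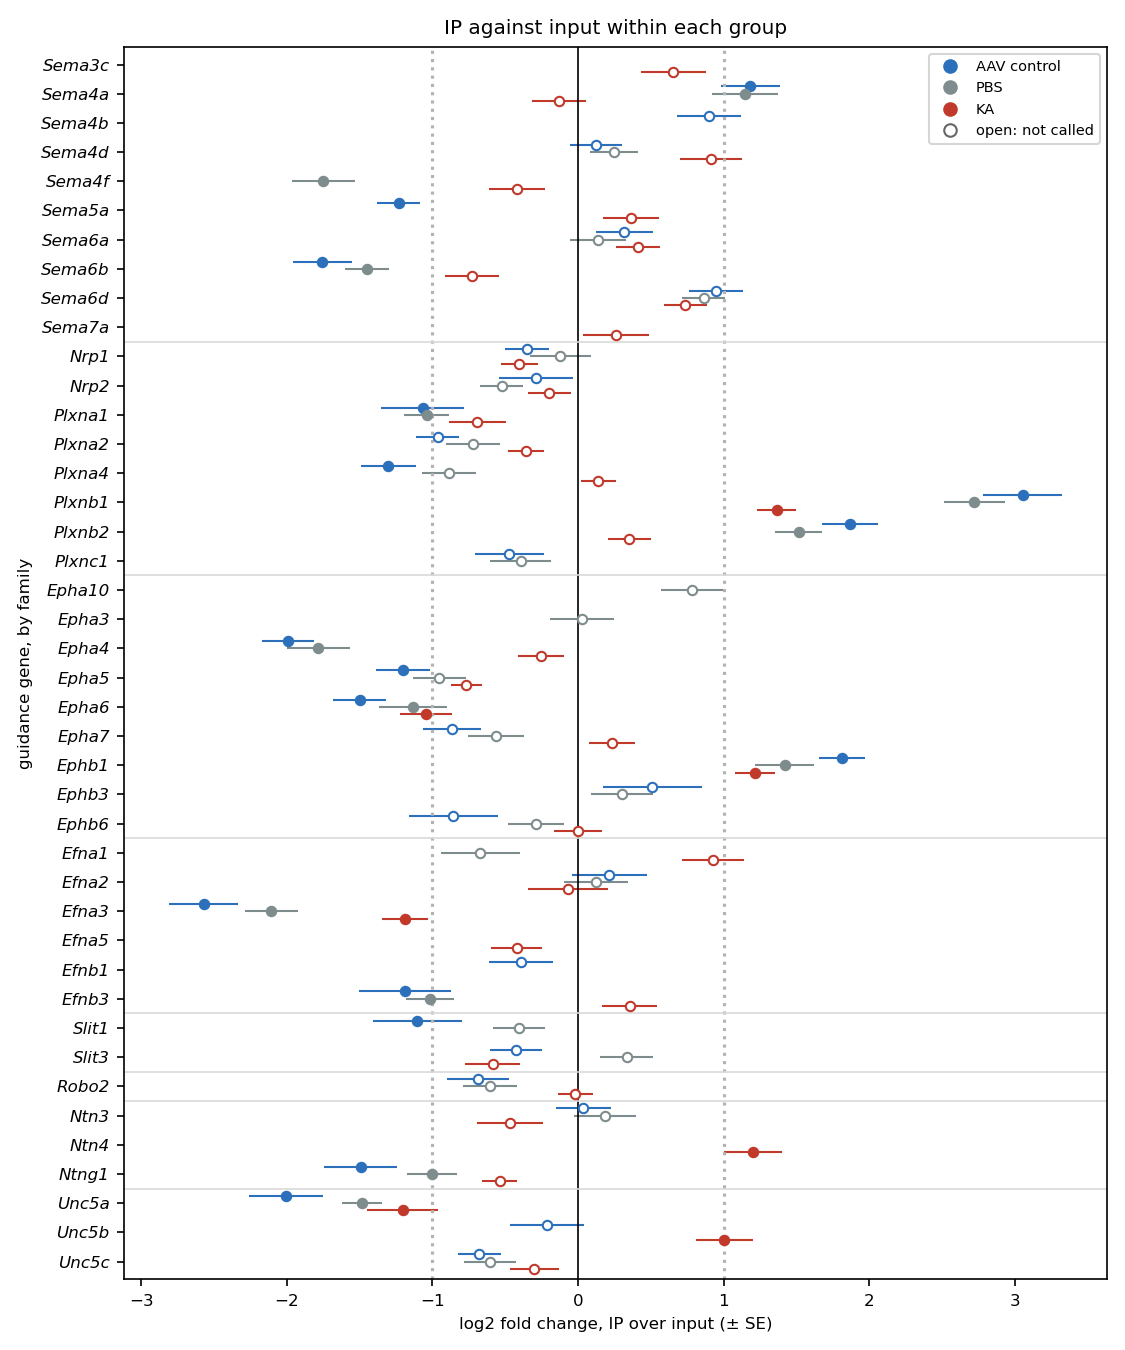
Log2 fold change of IP over input, with SE, within AAV control (blue), PBS (grey) and KA (red), for each guidance gene tested in at least 1 group. Filled points were called and dotted lines mark a 2-fold change. Plxnb1 lies at 3.05 in AAV control and 1.36 in KA, Efna3 at -2.57 and -1.19, and Epha4 at -1.99 and -0.26.

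Whether the KA effect itself differed between IP and input was tested with an interaction term. Against AAV control, 8 of 29 members tested had a KA effect that was higher in IP (27.6%), against 5.10% of all genes tested, and 3 had one that was lower (10.3%), against 4.32%. The median difference was 0.46 over the members and -0.02 over all genes. The 8 were Epha4 (1.74 ± 0.23 on the log2 scale, adjusted p = 6.90e-04), Sema5a (1.60 ± 0.25, adjusted p = 0.00159), Efnb3 (1.54 ± 0.40, adjusted p = 0.0230), Plxna4 (1.45 ± 0.21, adjusted p = 0.00118), Efna3 (1.39 ± 0.27, adjusted p = 0.00587), Unc5b (1.22 ± 0.33, adjusted p = 0.0300), Epha7 (1.10 ± 0.26, adjusted p = 0.0163) and Sema6b (1.03 ± 0.27, adjusted p = 0.0281). Those with the lower effect in IP were Plxnb1 (-1.69 ± 0.30, adjusted p = 0.00333), Plxnb2 (-1.51 ± 0.24, adjusted p = 0.00189) and Sema4a (-1.31 ± 0.27, adjusted p = 0.00813). The KA effect was also called lower in IP for 6 of 8 astrocyte markers, with a median difference of -1.54 over the 8. It was called lower for 3 of 3 microglia markers tested too, with a median of -1.60. The part of either marker set in these 3 values was not tested. The KA effect was called higher in IP for 3 of 6 neuron markers (median 1.17) and 3 of 4 dentate granule cell markers tested (1.38). The same held for 2 of 4 CA pyramidal cell markers tested (1.09) and 2 of 6 oligodendrocyte markers (1.72). Their part in the 8 higher values was not tested. By the adjusted p alone 13 of 29 members passed (44.8%), against 13.2% of all genes tested. With any 1 of the 12 libraries left out, Epha4, Sema5a, Plxna4, Efna3, Plxnb1, Plxnb2 and Sema4a kept their calls. Efnb3 lost its call without KA IP #1 (1.38, adjusted p = 0.0568), KA IP #2 (1.53, adjusted p = 0.0523), AAV control IP #1 (1.34, adjusted p = 0.0534), AAV control IP #2 (1.36, adjusted p = 0.0573) or KA input #1 (1.42, adjusted p = 0.0697). Epha7 fell under 2-fold without KA IP #3 (0.97, adjusted p = 0.0367), AAV control IP #1 (0.94, adjusted p = 0.0361) or AAV control input #2 (0.99, adjusted p = 0.0464). Unc5b kept its call in 3 of the 12 fits, those without KA IP #3, AAV control IP #3 or AAV control input #3, and was at 1.02 (adjusted p = 0.0709, without KA IP #1) to 1.24 (adjusted p = 0.0528, without AAV control input #2) in the fits without KA IP #1 or #2, AAV control IP #1 or #2, any KA input library, or AAV control input #1 or #2. Sema6b kept its call in 5 of the 12 fits and was at 0.88 (adjusted p = 0.0385, without AAV control IP #3) to 1.06 (adjusted p = 0.0568, without KA input #1) in the fits without KA IP #2, AAV control IP #3, KA input #1 or #3, or any AAV control input library.

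Epha4 was at 40.8, 43.3 and 33.5 FPKM in AAV control input and 29.5, 27.7 and 28.9 FPKM in KA input, where the difference was not called (-0.44 ± 0.14), while it rose in IP as given above. In input Sema5a and Plxna4 were not called, with log2 fold changes of 0.17 ± 0.14 and 0.13 ± 0.15. Sema5a was at 4.62, 4.62 and 4.03 FPKM in AAV control input and 5.08, 4.43 and 5.29 FPKM in KA input, and Plxna4 at 8.71, 8.50 and 9.86 and 10.2, 10.3 and 9.30 FPKM. In KA IP both then reached the range of their input libraries. Efna3, at 11.7, 11.1 and 12.2 FPKM in AAV control input and 9.58, 12.2 and 10.2 FPKM in KA input, stayed higher in input than in IP. Plxnb1 was higher in all KA input libraries than in all AAV control input libraries (0.54 ± 0.14, adjusted p = 0.0864, not called), opposite to IP. The neuron marker sum was higher with KA in IP and lower with KA in input, like the Epha4 values, and its part in these differences was not tested.

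Against PBS, 4 of 29 members had a higher KA effect in IP (13.8%), against 4.98% of all genes, and 3 a lower one (10.3%), against 8.88%, with a median of 0.22 over the members and -0.07 over all genes. The same KA libraries entered this test. Higher were Efna1 (1.52 ± 0.36, adjusted p = 0.00787), Epha4 (1.45 ± 0.27, adjusted p = 0.00215), Efnb3 (1.29 ± 0.27, adjusted p = 0.00411) and Sema4f (1.24 ± 0.31, adjusted p = 0.0105), and lower were Plxnb1 (-1.43 ± 0.24, adjusted p = 0.00125), Sema4a (-1.35 ± 0.30, adjusted p = 0.00616) and Plxnb2 (-1.24 ± 0.21, adjusted p = 0.00132). Sema4f, a membrane semaphorin of neurons and the glial lineage, was at 1.13, 1.04 and 2.34 FPKM in PBS IP and 2.39, 2.38 and 3.07 FPKM in KA IP, while in input it was at 5.31, 5.08 and 5.65 and 3.78, 4.76 and 3.80 FPKM. With PBS as the baseline 6 of 8 astrocyte markers were again lower, with a median of -1.45, as were 3 of 3 microglia markers tested, with a median of -1.81. Called higher were 2 of 6 neuron markers (median 0.86), 3 of 4 dentate granule cell markers tested (1.16) and 6 of 6 oligodendrocyte markers (1.89). Of 4 CA pyramidal cell markers tested 2 were higher and 1 lower (1.01). The part of these markers in the member values was not tested. By the adjusted p alone 10 of 29 members passed (34.5%), against 25.5% of all genes tested. Each of these 7 member calls held with any 1 of the 12 libraries left out. With no filter for low values, Plxnb2 was under 2-fold (-0.98, adjusted p = 0.00615).

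**Figure D5:**
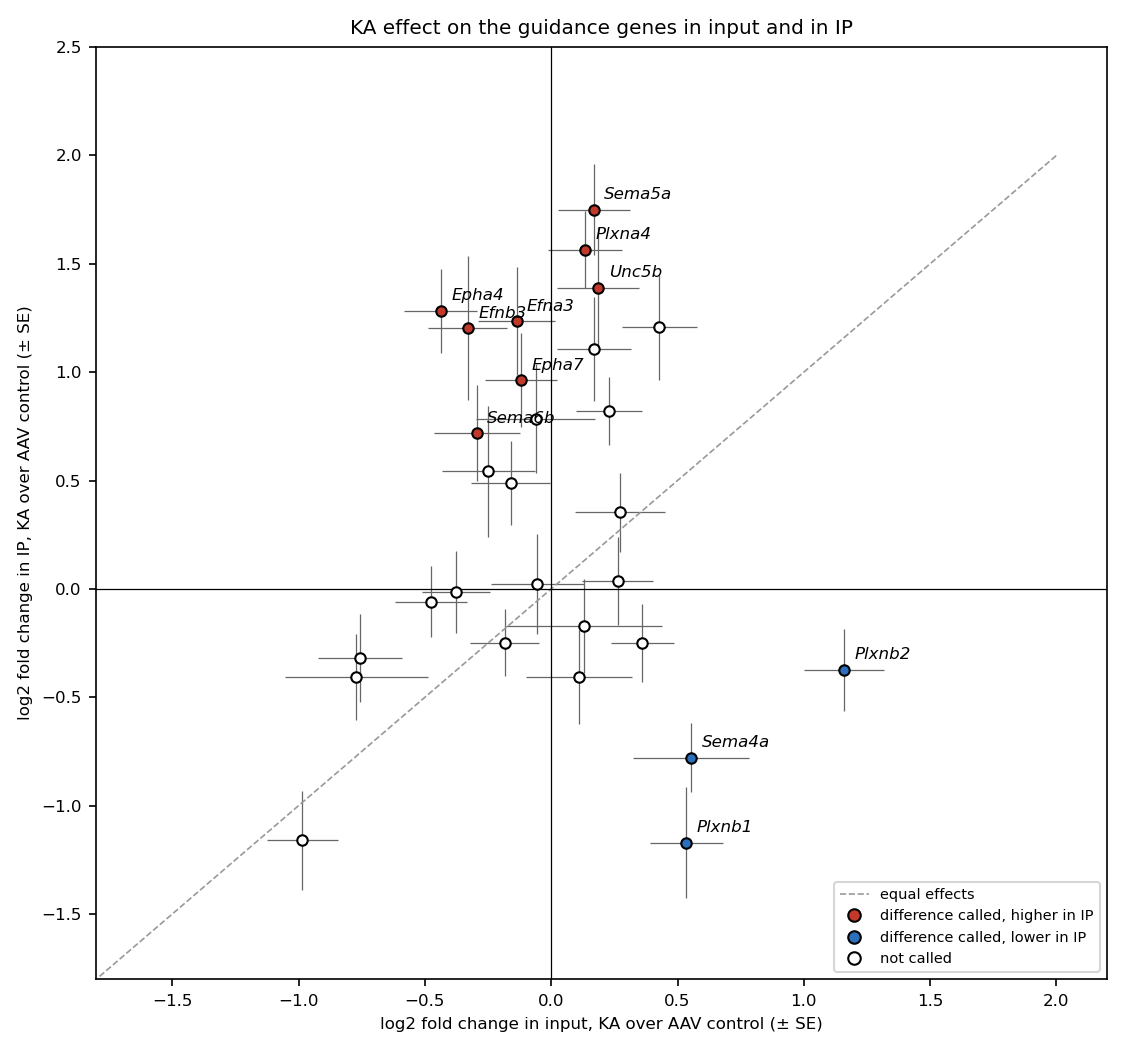
Log2 fold change of KA over AAV control in IP (vertical) against that in input (horizontal), with SE, for the 29 guidance genes tested in both. Red and blue points had a KA effect that was called higher or lower in IP than in input, and the dashed line marks equal effects. Epha4, Efnb3 and Efna3 lie above 1 in IP and below 0 in input, and Plxnb1, Plxnb2 and Sema4a lie below 0 in IP and above 0 in input.

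The members at or below 1 FPKM in some library were also tested with edgeR's filterByExpr in place of the FPKM filter, and those named here were chosen after their values were seen. In IP of KA and AAV control it admitted 35 of the 41, of which 6 were higher with KA (17.1%), against 9.41% of all genes so admitted, and 5 lower (14.3%), against 8.24%. A gene that enters through the group where it is high had to differ, so these values are a description. Sema3a, the secreted class 3 semaphorin that collapses growth cones, had 5, 9 and 10 counts in AAV control IP and 88, 67 and 72 counts in KA IP, or 0.0389, 0.0679 and 0.0563 and 0.570, 0.464 and 0.474 FPKM. In PBS IP Sema3a had 12, 3 and 17 counts, so that all KA IP libraries lay above all other IP libraries at a low level. In input it was at 0.190, 0.181 and 0.149 FPKM in AAV control, 0.172, 0.127 and 0.199 in PBS and 0.702, 0.764 and 0.332 in KA. The other genes higher in KA IP than in AAV control IP were Sema7a (2.77), Sema3c (2.04), Efna5 (1.99), the receptor Ephb2 (1.69) and Sema4f (1.48). Sema3c was at 0.649, 0.674 and 0.415 FPKM in AAV control IP and 2.84, 2.29 and 1.48 FPKM in KA IP, and Sema7a at 0.196, 0.159 and 0.355 and 1.5, 1.37 and 1.80 FPKM, neither with overlap.

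Lower in KA IP than in AAV control IP were Sema5b (-1.91), Robo1 (-1.55), Epha3 (-1.30), Ephb3 (-1.25) and Sema4b (-1.05). Sema5b, a relative of Sema5a, was at 0.640, 0.886 and 1.25 FPKM in AAV control IP, 1.38, 1.57 and 1.20 FPKM in PBS IP and 0.190, 0.312 and 0.193 FPKM in KA IP. Robo1, a Slit receptor, was at 0.973, 1.23 and 0.619, 0.854, 0.530 and 1.21 and 0.272, 0.361 and 0.249 FPKM in the same order of groups. Every KA IP library was below every other IP library for both genes. Against PBS 35 members below the FPKM filter were admitted, of which 8 were higher (22.9%), against 11.2% of all genes so admitted, among them Sema5a (1.58) and Unc5b (1.51), and 8 lower (22.9%), against 28.6%.

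Co-receptors and effectors of the same pathways formed a second list of 55 genes. Between KA and AAV control in IP, 37 were tested, 3 rose (8.11%) and 2 fell (5.41%), near the shares of all genes given above, and the median log2 fold change was 0.16. Risers were the adhesion molecules Cntn2 (1.47 ± 0.28) and Chl1 (1.33 ± 0.19), co-receptors in semaphorin signalling or its relatives, and Lrrc4 (1.28 ± 0.18), a netrin-G ligand protein. Mical2 (-1.10 ± 0.24), of a family of semaphorin effectors, and the Slit-Robo GTPase-activating gene Srgap3 (-1.07 ± 0.26) fell. Against PBS in IP 3 of 40 rose (Chl1, Cntn2 and Cdc42), or 7.5% against 8.08% of all genes tested, and 3 fell (Mical2, Srgap3 and Dscaml1), or 7.5% against 9.34%. In input no gene of the 43 tested was called against AAV control by edgeR, the one tool run on this list. Of the 43, 10 had an unadjusted p under 0.05, against 1939 of all 10809 genes tested. Against PBS 1 of 44 fell, Dscaml1 (-1.13 ± 0.15), or 2.27% against 1.09% of all genes tested. The KA effect was higher in IP than in input for 5 of 36 of these genes with AAV control as the baseline, namely Chn1, Cntn2, Chl1, Crmp1 and Lrrc4 (13.9%, against 5.10% of all genes tested), and lower for 1, Farp1 (2.78%, against 4.32%).

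Some values may include reads of an overlapping gene, since 44 of the 71 members overlap another gene in GENCODE and the library kit does not mark strand. Among the members called past the FPKM filter an annotated antisense gene lies over Plxna4 (chromosome 6, 32144268 to 32588192, with 3 antisense genes), Sema5a (chromosome 15, 32244810 to 32696341), Efna3 (chromosome 3, 89313899 to 89322965) and Plxnb1 (chromosome 9, 109095389 to 109119917), as well as over Plxna1, Epha6, Epha7 and Ntn4. Ephb1, like Unc5a, overlaps a protein-coding gene on the opposite strand, and Sema4d, Slit3, Ntng1 and Epha5 overlap opposite-strand genes of other kinds. Efnb3 (chromosome 11, 69554092 to 69560205) and Efna1 (chromosome 3, 89271733 to 89281142) overlap none. Coordinates are on GRCm38.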

How the data were processed

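RNA-seq of IP and input samples was analysed from the deposited counts and FPKM values, 18 libraries. Per the submitters' processing notes and the methods, the authors aligned reads to mm10 with STAR. featureCounts and edgeR are also named there, and annotation, strand setting and treatment of multimapping reads are not given in the sources used here. The authors deposited whole-number counts without normalization, and FPKM values that equal the count over library total and a fixed length for all 71 members (within 0.1%). Library totals were 7991681 to 16032180 counts.

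Counts were tested in R 4.3.3 with edgeR 4.0.16 (TMM, quasi-likelihood test, Benjamini-Hochberg over all genes tested) for genes with FPKM above 1 in all compared libraries, as in the methods of the study. A gene was called at an adjusted p under 0.05 with a log2 fold change of 1 or more in either direction. The interaction used the 12 libraries of 2 groups. The 3 samples of a group were separate pools of mice. Alternatives were RLE size factors, DESeq2 1.42.0, limma voom (limma 3.58.1), filterByExpr, no filter, a replicate block, sequencing run, and each library left out. The test was checked on simulated data.

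IP and input of the same number came from the same homogenate, and their residuals around the group means correlated at 0.493, 0.480 and 0.648 in KA, 0.498, 0.725 and 0.752 in AAV control and 0.326, 0.155 and 0.225 in PBS over 9001 genes. Members, marker lists and the list of effectors were chosen with earlier results of these data known. Genes described with values are those called with KA in IP or input, those with an interaction adjusted p under 0.05, the 5 highest and 5 lowest in IP against input in AAV control, and the highest of each family. Locations came from GENCODE on GRCm38 and promoters from RefSeq on GRCm38.p6.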

Additional observations from a re-analysis of the deposited data

Results flagged for a closer look

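Listed here are guidance genes whose KA effect differed between IP and input, by an interaction term with an adjusted p under 0.05 in edgeR. The KA effect is the difference between KA and the baseline group. For AAV control it also takes in the further injection, the time since the AAV and age. With AAV control as the baseline there were 13 of 29 (44.8%), against 13.2% of all genes tested. The KA effect was higher in IP for Epha4 (1.74 on the log2 scale), Sema5a (1.60), Efnb3 (1.54), Plxna4 (1.45), Efna3 (1.39), Unc5b (1.22), Epha7 (1.10), Sema6b (1.03), Ntng1 (0.96) and Plxna2 (0.61). It was lower in IP for Plxnb1 (-1.69), Plxnb2 (-1.51) and Sema4a (-1.31). For Ntng1 and Plxna2 the difference was under 2-fold.

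With PBS as the baseline, whose KA libraries are the same ones, there were 10 of 29 (34.5%), against 25.5% of all genes tested. The KA effect was higher in IP for Efna1 (1.52), Epha4 (1.45), Efnb3 (1.29), Sema4f (1.24), Plxna4 (0.95) and Efna3 (0.84). It was lower for Plxnb1 (-1.43), Sema4a (-1.35), Plxnb2 (-1.24) and Slit3 (-1.0). Of these, Plxna4, Efna3 and Slit3 fell short of 2-fold. Slit3 was past 2-fold with the replicate block (-1.02) and with limma voom (-1.02), and Plxna4 (1.17) and Efna3 (1.06) were with filterByExpr. All 3 were also past it in some fits with a library left out. Sema5a (1.64) and Unc5b (1.515), not past the FPKM filter with this baseline, were called with filterByExpr. Of 8 astrocyte markers 6 were called lower by the same test with either baseline (medians of -1.54 and -1.45). So were 3 of 3 microglia markers tested (medians of -1.60 and -1.81). The part of either marker set in the lower values was not tested. Neuron and oligodendrocyte marker sums in IP were higher with KA than in either other group, except that oligodendrocyte markers in AAV control IP #3 (1037 FPKM) came near the lowest KA value (1279 FPKM), and their part in these differences was not tested.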

How the results depend on the processing

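The count of guidance genes called depended most on the filter for low values, because 27 to 42 of the 71 genes were left out by the FPKM filter. With edgeR's filterByExpr and with no filter, respectively, the members called numbered 22 and 23 in place of 10 for KA against AAV control in IP, 21 and 20 in place of 4 for KA against PBS in IP, 6 and 6 in place of 2 for KA against AAV control in input, and 8 and 8 in place of 2 for KA against PBS in input. For IP against input they were 28 and 29 in place of 16 in AAV control, 28 and 30 in place of 13 in PBS, and 14 and 15 in place of 7 in KA, and for the difference of KA effects with PBS as the baseline 17 and 17 in place of 7. All genes called rose with them, to 2121 and 2823 in place of 1130 for KA against AAV control in IP and to 4093 and 5023 in place of 1716 against PBS in IP. In input they rose to 819 and 1169 in place of 292, and to 1582 and 1973 in place of 580. For IP against input they were 4329 and 4965 in place of 2626, 5037 and 5736 in place of 2818, and 2680 and 3146 in place of 1274. For the difference of KA effects with the PBS baseline they were 2397 and 2635 in place of 1289. No filter gave 1 call between PBS and AAV control in IP, Robo3 (1.15, adjusted p = 0.0448). With 1 library left out the counts were 5 to 10 for KA against AAV control in IP, 4 to 7 against PBS in IP, 0 to 2 for PBS against AAV control in IP, 0 to 3 for KA against AAV control in input and 1 to 4 against PBS in input. All genes called in those fits numbered, in the same order, 779 to 1496, 1464 to 1905, 0 to 546, 133 to 588 and 471 to 791. For single genes, 79 of 540 values with a library left out lost the call and 0 changed direction, fewer samples being part of that construction, and 8 of 467 under the other alternatives did. RLE size factors, DESeq2, limma voom, the sequencing run as a covariate and the run 1 libraries alone (the last chosen after seeing the data) left the counts within 1.5 times, though RLE, DESeq2 and limma voom each took Unc5b in KA IP over input to 0.99, 0.99 and 0.98, under 2-fold. With the replicate block 6 members in place of 7 were called for IP against input in KA (Unc5b lost) and 8 in place of 7 for the difference of KA effects with PBS as the baseline (Slit3 gained), and the block changed no other count. Same-numbered samples of different groups share a number but no stated origin. Their residuals correlated at 0.348, 0.530 and 0.551 between KA and AAV control IP, where the numbers also follow the sequencing runs, and at 0.106, -0.294 and -0.070 between KA and PBS IP. The block left the 10 calls of KA against AAV control in IP at 10. Depth limits the genes near 0.1 FPKM, such as Sema3a with 5 to 10 counts in AAV control IP, where a count of 0 would be compatible with up to 3.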
